A study of Arabidopsis thaliana with 14 samples.

Results

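TBL25 (AT1G01430), TBL45 (AT2G30010) and PMEPCRF (AT5G53370) encode proteins that modify polymers of the plant cell wall, and each was measured by 1 probe set naming that gene alone, 3 of the 22810 on the ATH1 array. They were taken by name, from genes that earlier results of these data had singled out for their values. TBL45 was among the 8 largest falls of named genes after drought in Col-0 (the 7th of 186), TBL25 was the 8th of 11 rises and PMEPCRF the 8th of 8 falls in camta5 against Col-0 in drought. Just inside the limit of 8 in the first of these lists stood MSRB6 at a log2 difference of -3.40 and just outside it psbB at -3.36, with TBL45 at -3.42. In the second, TBL25 at 0.97 was the last inside and SDP1 at 0.93 the first outside, and the third list ended with PMEPCRF. Those differences, and every difference that shares arrays with them, are therefore given as a description with no test. A test is given only where the groups compared held none of the arrays that chose the gene. The choosing arrays still enter the SE, interval and p-value of such a test, because the fit shares 1 spread per probe set among all arrays. These tests are therefore not fully independent of the choice.

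Leaf RNA came from 1-month-old Arabidopsis thaliana plants in the Col-0 background, 250 ng of total RNA per array, 14 arrays in 5 groups. The groups were the CAMTA5 overexpression line OX-5 (written OX5) after 14 days of drought (2 arrays), the line camta5-a (camta5) after 14 days of drought (3 arrays), camta5 with water (3 arrays), wild-type Col-0 after 14 days of drought (3 arrays) and Col-0 with water (3 arrays). CAMTA5 is a calmodulin-binding transcription activator, and the series asks how its overexpression bears on drought tolerance. Neither the number of lines per genotype nor the lesion of camta5-a nor the promoter of the OX5 construct is given in the sources used here. None of the 14 arrays came from watered OX5 leaves, so no drought difference can be given for that line. One array, camta5 water replicate 1, carried a wild-type genotype entry against its title and source, and was grouped by its title.

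The targeted gene did not check the labels. CAMTA5 (AT4G16150) had a signal of 346 ± 79.1 in OX5 drought (SD, n = 2), 285 ± 20.6 in camta5 drought, 172 ± 18.5 in camta5 water, 198 ± 46.0 in Col-0 drought and 149 ± 32.4 in Col-0 water (n = 3 each), so camta5 was not below Col-0. Directions below rest on the labels. The OX5 arrays stood apart, with Spearman coefficients of 0.805 to 0.865 to the other 12 arrays, which had 0.896 to 0.960 among themselves. With each array centred on its median, the median log2 difference over all tested probe sets was -0.16 in OX5 minus camta5 and -0.17 in OX5 minus Col-0, and -0.02 and -0.04 without it. Their ratio of 3′ to 5′ actin control signal was 13.1 to 23.7, against 20.9 to 35.7 on the other 12 arrays. In camta5 drought this ratio was 24.5 to 29.3, against 29.6 to 35.7 in Col-0 drought. For GAPDH the ratio was 2.43 to 3.26 in camta5 drought and 2.76 to 3.77 in Col-0 drought. On the OX5 arrays the GAPDH ratio was 2.27 to 2.48, inside the range of the other 12 arrays (2.11 to 3.77). The part of these ratios in the results was not tested. Of 8 marker lists, 3 had a measured gene. The leaf gene RCA, Rubisco activase, was at 32080 to 37041 as a group mean in all 5 groups, and the root-hair gene EXPA7 at 4.85 to 23.6. The guard-cell marker GC1 averaged 235 ± 85.3 in camta5 drought against 794 ± 120 in camta5 water, and 140 ± 73.7 in Col-0 drought against 785 ± 128 in Col-0 water (SD, n = 3 each), while FAMA, the other guard-cell marker measured, averaged 275 ± 53.3 in camta5 drought and 300 ± 66.3 in camta5 water, and 245 ± 26.3 in Col-0 drought and 203 ± 52.0 in Col-0 water. In OX5 drought GC1 averaged 272 ± 141 and FAMA 186 ± 107 (SD, n = 2 each). The OX5 range of GC1 (173 to 372) overlapped with that of camta5 drought (146 to 316), unlike that of TBL45. In camta5 and Col-0, GC1 was low in drought and high with water, like TBL45, and its part in that difference was not tested. In whole leaves, fewer cells of a type and less RNA per cell cannot be told apart.

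Hemicelluloses and pectins leave the Golgi carrying acetyl groups, which proteins of the TRICHOME BIREFRINGENCE-LIKE (TBL) family add to the sugar backbone, and these groups influence how the chains pack and how enzymes reach them. The homogalacturonan of pectin is secreted with methyl esters. Pectin methylesterases remove these esters in the wall, after which the chains can be bridged by calcium or cut by polygalacturonases. TBL25 is one of the Arabidopsis TBL proteins that acetylate mannan, together with TBL23 and TBL26. TBL45 belongs to the same family. PMEPCRF is annotated as a pectin methylesterase.

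TBL45 was lower in drought than with water in camta5 and in Col-0, the lines that had both. In camta5 drought the 3 signals were 123, 58.9 and 86.7, against 272, 423 and 532 in camta5 water. The drought arrays all lay below the water arrays of the same line. This comparison shares no array with the Col-0 comparison that chose the gene, and TBL45 fell there by 2.01 ± 0.44 on the log2(signal + 16) scale (SE; 95% interval -2.95 to -1.06; limma, adjusted p = 0.00866 over 15646 probe sets). Of those probe sets 7.61% were called lower and 8.67% higher in camta5 (16.3% in all), 36.6% had no overlap between the arrays and 16.7% lay lower with none. Leaving out any 1 of the 14 arrays kept the call, with adjusted p of 0.00117 to 0.0440, which is also the range over all 27 alternatives.

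In Col-0 drought TBL45 had signals of 100.02, 8.42 and 25.1, against 380, 588 and 587 in Col-0 water. All 3 drought arrays lay below all 3 water arrays, in the comparison that chose the gene. The 3 drought values also differed widely among themselves, and replicates 2 and 3 lay below the 40th percentile of their arrays (64.8 and 63.9), as did camta5 drought replicate 2. The log2 difference was -3.42 ± 0.44. It was -4.05 without Col-0 drought replicate 1 and -2.92 without replicate 2. In this comparison 11.7% of probe sets were called lower (27.3% in either direction) and 19.0% lay lower with no overlap (44.6% in either direction).

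**Figure D1:**
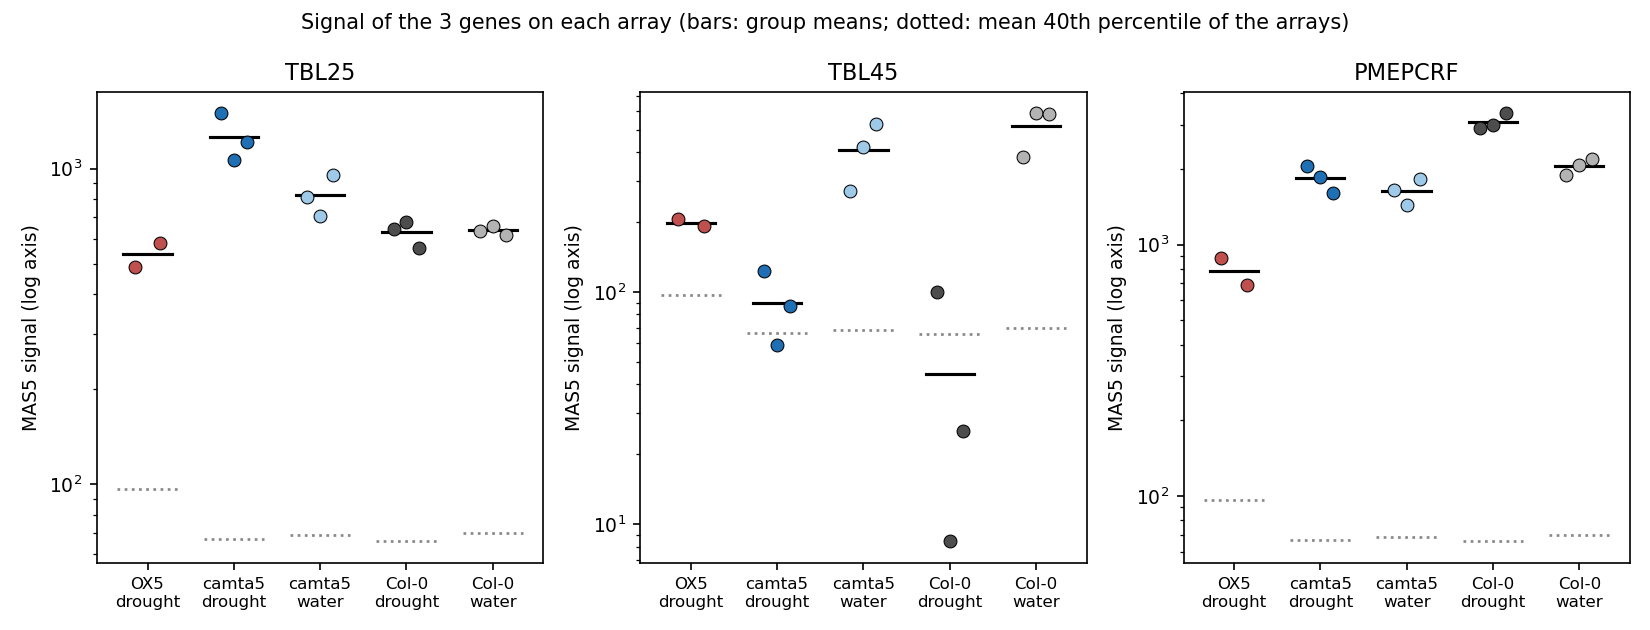
MAS5 signal (log axis) of TBL25, TBL45 and PMEPCRF on each of the 14 arrays; points are arrays, bars are group means, and dotted lines are the mean of the 40th percentile of the arrays in a group. TBL25 is highest in camta5 drought (1065 to 1495), TBL45 is lowest in Col-0 drought (8.42 to 100.02) and PMEPCRF lies between 688 and 885 in OX5 drought and between 2917 and 3324 in Col-0 drought.

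In OX5 drought TBL45 was at 206 and 193, higher than every camta5 and Col-0 drought array and lower than every watered array. The OX5 signals were above the 40th percentile of their own arrays (104 and 88.8). Against camta5 drought, which played no part in the choice, the log2 difference was 1.07 ± 0.49 (95% interval 0.02 to 2.13). It did not pass the test (limma, adjusted p = 0.0942), in a comparison with 20.2% of probe sets called higher, 22.5% called lower, 29.9% higher with no overlap and 59.8% with no overlap in either direction. Without Col-0 drought replicate 1 or 2, which enter only through the shared spread, the same difference had adjusted p of 0.0217 and 0.0467, and over the other alternatives the test was not passed, with adjusted p up to 0.245 (without OX5 replicate 1). Against Col-0 drought it was 2.14 ± 0.49, a description because it shares arrays with the choice, and it moved to 2.76 without Col-0 drought replicate 1 and 1.64 without replicate 2. That comparison called 21.7% of probe sets higher and 25.0% lower, and 30.6% lay higher with no overlap, of 62.5% with none in either direction.

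By group, TBL45 averaged 199 ± 9.22 in OX5 drought (SD, n = 2), 89.5 ± 32.2 in camta5 drought, 409 ± 130 in camta5 water, 44.5 ± 48.8 in Col-0 drought and 518 ± 120 in Col-0 water (SD, n = 3 each). The order from the top was Col-0 water, camta5 water, OX5 drought, camta5 drought and Col-0 drought, and of neighbours in this order OX5 drought alone stood clear of both of its own. Both watered groups overlapped, at 272 to 532 in camta5 and 380 to 588 in Col-0, and so did both non-OX5 drought groups, at 58.9 to 123 in camta5 and 8.42 to 100.02 in Col-0. The log2 difference of camta5 from Col-0 was -0.35 ± 0.44 with water and 1.07 ± 0.44 in drought, and this drought value was 1.69 without Col-0 drought replicate 1 and 0.57 without replicate 2. The drought difference of camta5 less that of Col-0 was 1.42 ± 0.63. No probe set was called in that comparison (0% of 15646; 885 at an unadjusted p under 0.05), and since Col-0 drought chose the gene the value is a description.

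TBL25 was highest in camta5. In camta5 drought its signals were 1495, 1065 and 1215, against 645, 678 and 562 in Col-0 drought. Every camta5 drought array lay above every Col-0 drought array, and the log2 difference was 0.97 ± 0.17. This is the difference that chose the gene, and 1.02% of probe sets were called higher in it and 7.77% lay higher with no overlap (18.0% in either direction).

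With water, on arrays that the choice did not use, TBL25 was at 813, 709 and 953 in camta5, against 633, 659 and 617 in Col-0. All 3 camta5 arrays again lay above all 3 Col-0 arrays. The log2 difference of 0.36 ± 0.17 (95% interval 0.0012 to 0.71) did not pass the test (limma, unadjusted p = 0.0493, adjusted p = 0.778), and the adjusted p was 0.442 to 1.00 over the alternatives. No probe set at all was called between the watered groups (0%), 1000 had an unadjusted p under 0.05, and 7.87% lay higher in camta5 with no overlap, of 15.3% in either direction. So the watered leaves gave the same sign as the droughted leaves, on a smaller scale and without passing the correction. The SE, interval and p-values of the watered difference also rest on the choosing arrays, through the shared spread.

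Drought and water signals of TBL25 overlapped in Col-0 and did not in camta5. In camta5 the drought arrays (1065 to 1495) lay above the water arrays (709 to 953), with a log2 difference of 0.60 ± 0.17, where 19.9% of probe sets lay higher with no overlap. In Col-0 drought the range was 562 to 678, against 617 to 659 in Col-0 water, a difference of -0.02 ± 0.17. The camta5 difference less the Col-0 difference was 0.62 ± 0.23. All of these share arrays with the choice and were not tested.

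In OX5 drought TBL25 was at 487 and 583. Its range met that of Col-0 drought (log2 difference -0.23 ± 0.19) and lay below that of camta5 drought (-1.20 ± 0.19). Both differences share arrays with the choice and were not tested. In OX5 minus camta5, 29.8% of all probe sets lay lower with no overlap, of 59.8% with none in either direction. The group means were 535 ± 67.5 in OX5 drought (SD, n = 2), 1258 ± 218 in camta5 drought, 825 ± 122 in camta5 water, 628 ± 59.98 in Col-0 drought and 637 ± 21.3 in Col-0 water (SD, n = 3 each). The order from the top was camta5 drought, camta5 water, Col-0 water, Col-0 drought and OX5 drought. Both camta5 groups stood clear of their neighbours, while Col-0 drought overlapped with Col-0 water and with OX5 drought.

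PMEPCRF was highest in droughted Col-0 leaves and lowest in OX5. In camta5 drought its signals were 2051, 1863 and 1607, against 2917, 2992 and 3324 in Col-0 drought. The camta5 drought signals were all lower than the Col-0 drought signals, and the log2 difference was -0.74 ± 0.15. This difference chose the gene, and 0.441% of probe sets were called lower in it and 10.2% lay lower with no overlap.

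With water PMEPCRF was at 1647, 1438 and 1820 in camta5, against 1890, 2067 and 2187 in Col-0. The camta5 arrays lay below the Col-0 arrays here too, on arrays that the choice did not use. The log2 difference of -0.33 ± 0.15 (95% interval -0.65 to -0.0043) did not pass the test (limma, unadjusted p = 0.0474, adjusted p = 0.778), with adjusted p of 0.415 to 1.00 over the alternatives. Its SE, interval and p-values also rest on the choosing arrays, through the shared spread. Of all probe sets 7.38% lay lower in camta5 with no overlap.

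In Col-0 the drought arrays of PMEPCRF (2917 to 3324) lay above the water arrays (1890 to 2187), a log2 difference of 0.58 ± 0.15. In camta5 the drought range was 1607 to 2051, against 1438 to 1820 with water, with overlap and a difference of 0.17 ± 0.15. The camta5 difference less the Col-0 difference was -0.41 ± 0.21. In Col-0 15.6% of probe sets were called higher after drought and 25.6% lay higher with no overlap, so a value of this kind was common in that comparison.

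OX5 drought had PMEPCRF signals of 885 and 688, below every other array. The log2 difference was -1.21 ± 0.17 from camta5 drought and -1.96 ± 0.17 from Col-0 drought, neither of them tested since they share arrays with the choice. In the first of these comparisons 29.8% of probe sets lay lower with no overlap, and in the second 31.9%. The group means were 786 ± 139 in OX5 drought (SD, n = 2), 1841 ± 223 in camta5 drought, 1635 ± 191 in camta5 water, 3078 ± 217 in Col-0 drought and 2048 ± 149 in Col-0 water (SD, n = 3 each). The order from the top was Col-0 drought, Col-0 water, camta5 drought, camta5 water and OX5 drought. Col-0 water overlapped with camta5 drought and camta5 drought with camta5 water, while Col-0 drought and OX5 drought stood clear of their neighbours.

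**Figure D2:**
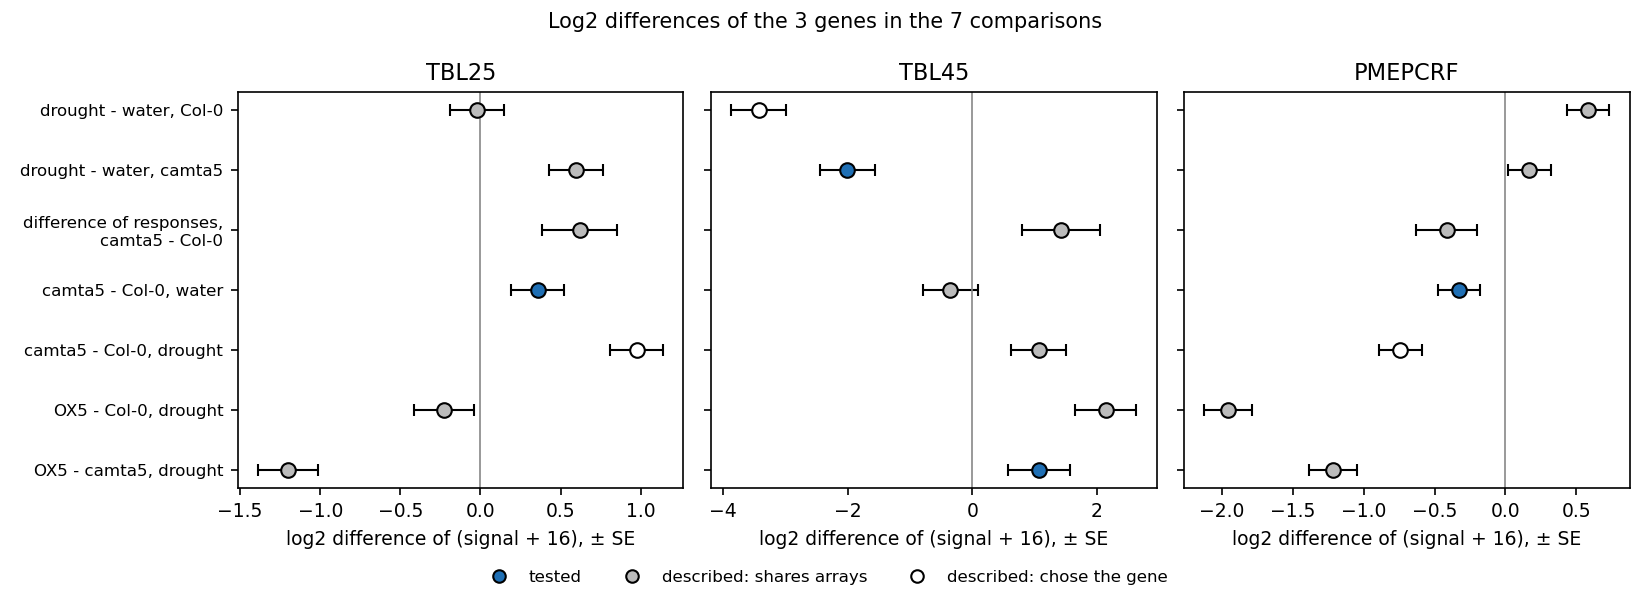
Log2 differences of (signal + 16) with their SE for the 3 genes in the 7 comparisons, from 1 limma fit of all 14 arrays; blue points were tested, grey points share arrays with the comparison that chose the gene, and white points are that comparison. TBL45 is at -3.42 and -2.01 for drought minus water in Col-0 and camta5, TBL25 is above 0 and PMEPCRF below 0 in both camta5 minus Col-0 comparisons.

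The 3 genes thus had 3 different orders across the 5 groups. TBL45 separated watered from droughted leaves in each line that had both. TBL25 was higher and PMEPCRF lower in camta5 than in Col-0, under water and under drought, with no overlap between arrays grouped by title. In drought these differences chose both genes, and neither watered difference passed the test (limma, adjusted p = 0.778 each). With water 7.87% of all probe sets lay higher and 7.38% lower in camta5 with no overlap. Counting camta5 water replicate 1 as Col-0 water made the watered groups overlap for both genes. That array was at 813 for TBL25 (the other camta5 water arrays 709 and 953) and 1647 for PMEPCRF (1438 and 1820). In OX5 drought, PMEPCRF and TBL45 lay outside the range of both other drought groups, one below and one above. Of all probe sets 59.8% had no overlap between OX5 and camta5 drought, and 62.5% between OX5 and Col-0 drought. TBL45 against camta5 drought did not pass the test (limma, adjusted p = 0.0942), and the other OX5 differences of these genes were not tested.

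The other measured TBL genes did not move as 1 group. The family list gave 22 further genes that carried the listed name in RefSeq and had a probe set annotated to that gene alone. Of these, 16 passed the filter on dim probe sets. After drought in Col-0, 3 of these 16 fell and 1 rose, against 11.7% lower and 15.6% higher over all probe sets, and the median log2 difference was -0.64, against 0.08 over all tested. In camta5 3 of 16 fell and 1 rose, against 7.61% and 8.67%, with a median of -0.05 against 0.04 over all tested. These counts are small, and leaving out 1 array changed them. The 3 lower genes in Col-0 became 1 without Col-0 water replicate 3 and 5 without Col-0 drought replicate 1, and the 1 higher became 0 without drought replicate 2. In camta5 the 3 lower became 1 without water replicate 3, drought replicate 2 or drought replicate 3. The 1 higher gene there became 0 without water replicate 2 or 3 and 2 without drought replicate 1. In OX5 drought none of the 16 was called higher, while 2 were called lower against camta5, where 20.2% of all probe sets were called higher and 22.5% lower (median of the 16 -0.02, and -0.02 over all tested). Against Col-0 3 were called lower, where 21.7% of all probe sets were called higher and 25.0% lower (median 0.17, and -0.04 over all tested).

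TBL28, a relative linked to xylan acetylation, fell in both lines. Its signal was 95.02 ± 10.9 in camta5 drought against 279 ± 9.78 in camta5 water, a log2 difference of -1.41 ± 0.27 (limma, adjusted p = 0.00464). In Col-0 it was 150.1 ± 28.2 in drought against 351 ± 77.5 with water (SD, n = 3 each), a log2 difference of -1.14 ± 0.27 (limma, adjusted p = 0.00752). OX5 drought leaves held less TBL28 signal still, 30.5 ± 24.9 (SD, n = 2), with log2 differences of -1.36 ± 0.31 from camta5 drought (limma, adjusted p = 0.00259) and -1.93 ± 0.31 from Col-0 drought (adjusted p = 0.000140). Both OX5 signals lay below the 40th percentile of their arrays, so the size of these differences is uncertain, and with an offset of 64 they were -0.77 and -1.20. The OX5 difference from camta5 was not called in a fit of those arrays alone (adjusted p = 0.0671).

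TBR, the founding member of the family, known for its part in the crystalline cellulose of trichomes, also fell in both lines. Its signal was 619.5 ± 267 in camta5 drought against 1185 ± 232 in camta5 water, a log2 difference of -0.98 ± 0.26 (limma, adjusted p = 0.0205). In Col-0 it was 569.9 ± 118 in drought against 960.0 ± 153 with water (SD, n = 3 each), a difference of -0.74 ± 0.26 (adjusted p = 0.0445). The camta5 call ended under 3 of 27 alternatives (adjusted p up to 0.0969, without camta5 water replicate 3, drought replicate 2 or drought replicate 3) and the Col-0 call under 9 of 27 (up to 0.165, without Col-0 drought replicate 2). With the replicate number as a block the Col-0 call ended too (adjusted p = 0.0581).

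TBL38 rose in camta5, at 1111 ± 78.0 in drought against 694 ± 36.8 with water (SD, n = 3 each), a log2 difference of 0.67 ± 0.17 (limma, adjusted p = 0.0171). That call ended without camta5 water replicate 2 or 3 (0.0546 and 0.0526). In Col-0 the TBL38 difference was 0.28 ± 0.17 (limma, adjusted p = 0.236), and the difference between the lines' responses did not pass the test (0.38 ± 0.24, adjusted p = 0.912). In OX5 drought TBL38 was at 478 ± 102 (SD, n = 2), a difference of -1.20 ± 0.19 from camta5 drought (limma, adjusted p = 0.000159). From Col-0 drought, at 903 ± 168, the OX5 difference was -0.89 ± 0.19 (adjusted p = 0.00137). Both OX5 calls held under all 26 alternatives. TBL18 rose in Col-0, at 426 ± 111 in drought against 211 ± 28.3 with water, by 0.94 ± 0.24 (limma, adjusted p = 0.00987), a call that ended without Col-0 drought replicate 2 (0.0571). In camta5 the TBL18 difference was 0.49 ± 0.24 (limma, adjusted p = 0.173), and the responses of the lines differed by -0.44 ± 0.34 without passing the test (adjusted p = 0.926).

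The mannan acetylation genes differed from one another. TBL26 averaged 287 ± 115 in camta5 drought against 1335 ± 296 in camta5 water, and 755 ± 574 in Col-0 drought against 2175 ± 501 in Col-0 water (SD, n = 3 each). It fell in both, with log2 differences of -2.21 ± 0.64 in camta5 (limma, adjusted p = 0.0308) and -2.08 ± 0.64 in Col-0 (adjusted p = 0.0261). The camta5 call ended under 8 of 27 alternatives (adjusted p up to 0.121, without camta5 drought replicate 2), 5 of which left out an array: any of the 3 water arrays, or drought replicate 2 or 3. The Col-0 call ended under 4 of 27 (up to 0.0778), among them without Col-0 water replicate 2 or 3, and the Col-0 difference was -0.96 without Col-0 drought replicate 2. In OX5 drought TBL26 was at 91.7 ± 20.5 (SD, n = 2), with replicate 1 (77.2) below the 40th percentile of its array (104). From camta5 drought it differed by -1.43 ± 0.72 and was not called (limma, adjusted p = 0.122). Its difference from Col-0 drought was -2.25 ± 0.72 (limma, adjusted p = 0.0183), although the arrays overlapped. That call ended without either OX5 array, without Col-0 drought replicate 1 or 3 and with only the arrays compared (adjusted p up to 0.106), and the difference was -3.37 without Col-0 drought replicate 2.

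TBL23 had log2 differences of 0.15 ± 0.25 in camta5 and 0.36 ± 0.25 in Col-0 for drought (limma, adjusted p = 0.715 and 0.300), and -0.26 ± 0.28 and -0.26 ± 0.28 for OX5 against camta5 and Col-0 in drought (adjusted p = 0.484 and 0.472). None of these passed. The values of TBL25 beside them were 0.60 ± 0.17 and -0.02 ± 0.17 for drought in camta5 and Col-0, and -1.20 ± 0.19 and -0.23 ± 0.19 for OX5 against camta5 and Col-0. CSLA03, a gene of the family that makes the mannan backbone, had a signal of 325 ± 74.1 in OX5 drought (SD, n = 2) against 57.1 ± 48.1 in Col-0 drought (SD, n = 3), a difference of 2.58 ± 0.71 (limma, adjusted p = 0.00829). It was not called without OX5 replicate 1 (adjusted p = 0.0643). From camta5 drought, at 149 ± 114 (SD, n = 3), the CSLA03 difference was 1.26 ± 0.71 and was not called (limma, adjusted p = 0.168). The difference from Col-0 drought was 1.74 without Col-0 drought replicate 2, 1.77 with an offset of 64 and 3.56 with an offset of 1.

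**Figure D3:**
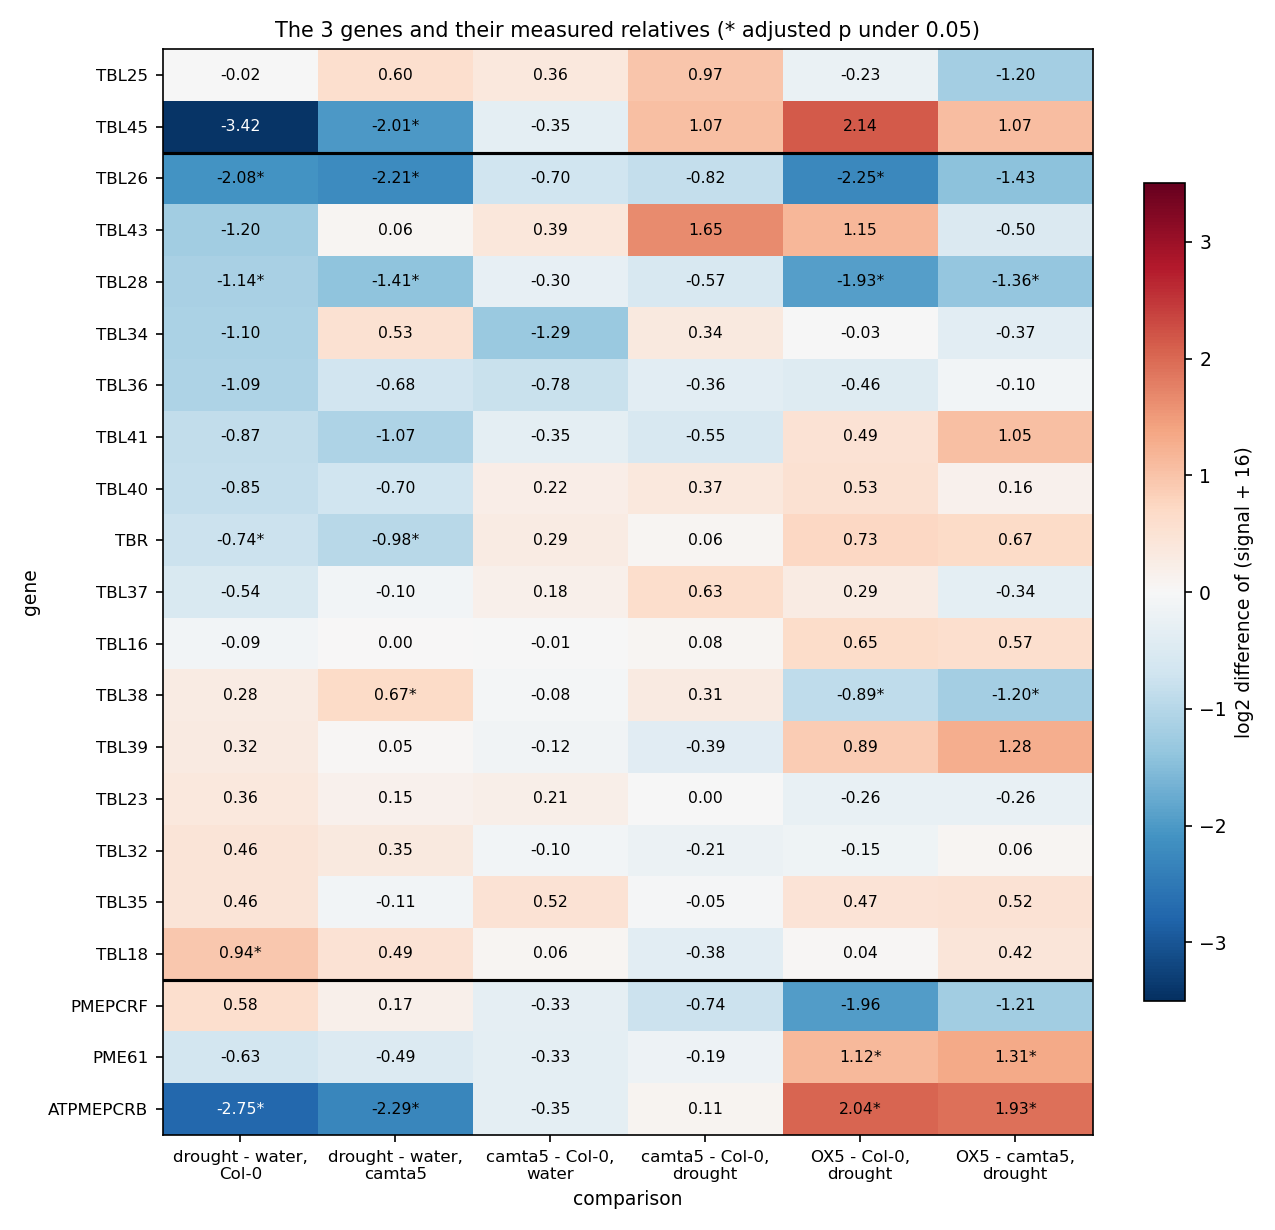
Log2 differences of (signal + 16) of the 3 genes and of the 18 relatives that passed the filter, in 6 comparisons; rows are genes, colour and printed number give the difference, and an asterisk marks a limma adjusted p under 0.05 (for TBL25, TBL45 and PMEPCRF only where a test was given). TBL26, TBL28 and TBR are lower after drought in both lines, and ATPMEPCRB is lower after drought and higher in OX5, against PMEPCRF at 0.58, 0.17, -1.96 and -1.21 in the same 4 comparisons.

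Of 2 other named pectin methylesterase genes that were tested, ATPMEPCRB fell after drought in both lines, and both were called higher in OX5. These 2 were all that could be tested of 41 listed entries, so they do not stand for the family. Over all probe sets 7.61% were called lower after drought in camta5 and 11.7% in Col-0, and 20.2% were called higher in OX5 against camta5 and 21.7% against Col-0. ATPMEPCRB had signals of 70.8 ± 42.3 in camta5 drought against 376 ± 81.1 in camta5 water, a log2 difference of -2.29 ± 0.38 (limma, adjusted p = 0.00216). In Col-0 it was at 58.2 ± 12.6 in drought against 513 ± 222 with water (SD, n = 3 each), a difference of -2.75 ± 0.38 (adjusted p = 0.000241). In OX5 drought it was at 286 ± 37.9 (SD, n = 2), 1.93 ± 0.42 from camta5 drought (limma, adjusted p = 0.00218) and 2.04 ± 0.42 from Col-0 drought (adjusted p = 0.00125). ATPMEPCRB lay above the 40th percentile on 2 of 3 camta5 drought arrays and 1 of 3 Col-0 drought arrays. These 4 calls held under all alternatives run, and the Col-0 drought difference was -2.16 with an offset of 64. In the same order of comparisons PMEPCRF was at 0.17 ± 0.15, 0.58 ± 0.15, -1.21 ± 0.17 and -1.96 ± 0.17. The last 3 were of the opposite sign, and the first was close to its SE, with overlapping arrays. All of these PMEPCRF values share arrays with its choice and were not tested. PME61 was at 136 ± 48.5 in OX5 drought (SD, n = 2), against 45.1 ± 17.7 in camta5 drought and 59.1 ± 38.7 in Col-0 drought (SD, n = 3 each). It lay above the 40th percentile on 1 of 2 OX5 arrays, 0 of 3 camta5 drought arrays and 1 of 3 Col-0 drought arrays, so the size of its differences is uncertain. These were 1.31 ± 0.43 and 1.12 ± 0.43 (limma, adjusted p = 0.0244 and 0.0454), calls that ended under 6 of 25 and 18 of 25 alternatives (adjusted p up to 0.173 and 0.261, each without OX5 replicate 2). ATPMEPCRD and PME39 were too dim to be tested.

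ADPG1, a polygalacturonase that cuts de-esterified pectin, had signals of 371 and 267 in OX5 drought. On the other 12 arrays it was at 1.14 to 29.1, below the 40th percentile of each. It passed the filter only through the OX5 arrays, so no fold or test is given. SBT3.5, a subtilase known to process a pectin methylesterase, was at 1559.5 ± 195 in OX5 drought (SD, n = 2), against 172 ± 48.2 in camta5 drought and 134 ± 14.8 in Col-0 drought (SD, n = 3 each), above the 40th percentile on all of these arrays. Its differences were 3.09 ± 0.36 and 3.39 ± 0.36 (limma, adjusted p = 1.11e-05 and 3.66e-06), called under every alternative run. S1P, another subtilase, rose after drought in Col-0 by 0.95 ± 0.26 (limma, adjusted p = 0.0140), at 371 ± 52.8 in drought against 193 ± 73.5 with water, and the call ended without Col-0 water replicate 2 (0.0655) or drought replicate 2 (0.0643). In camta5 the S1P difference was 0.39 ± 0.26 (limma, adjusted p = 0.323), and the responses of the lines differed by -0.56 ± 0.37 without passing the test (adjusted p = 0.916). Of all probe sets 42.6% were called in OX5 minus camta5 and 46.7% in OX5 minus Col-0.

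The 22 relatives that passed the filter were 16 TBL genes, 2 pectin methylesterase genes and 4 other wall genes. None was called between camta5 and Col-0, with water or in drought, where 0% and 1.46% of probe sets were called. TBL25 and PMEPCRF were the genes chosen for a difference there, so this says nothing about how they stand among their relatives. Nor does it decide anything for ADPG1, whose signals on the camta5 and Col-0 arrays (1.14 to 29.1) were all below the filter's percentile. TBL34, TBL41 and TBL43 each lay above that percentile on only 2 of these arrays, so their lack of a call carries little weight.

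The genes most like each of the 3 were found by Pearson's r over the 14 arrays among 1225 named genes. These coefficients are descriptions. The arrays share their groups, and the OX5 arrays can dominate a coefficient, so r over the other 12 arrays is given as well. For TBL45 the nearest were PSBY (a photosystem II subunit, r = 0.949, and 0.959 without OX5), CHLM (a methyltransferase of chlorophyll synthesis, 0.930 and 0.940), PSAN (a photosystem I subunit, 0.921 and 0.926), the methionine sulfoxide reductase gene MSRB6 (0.920 and 0.920) and AR781 (0.917 and 0.935). All 5 stood at ranks 5 to 21 without the OX5 arrays. PSBY had signals of 18743 and 17909 in OX5 drought, and of 14834, 8457 and 10007 in camta5 drought against 21834, 19800 and 22173 in camta5 water, with replicate 2 the lowest of the drought arrays, as for TBL45. In Col-0 drought it was at 11258, 5597 and 9153, against 20678, 24511 and 19184 in Col-0 water, and replicate 2 was again the lowest of the drought arrays for both genes.

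For PMEPCRF the nearest were IQD30 (a calmodulin-binding protein of the IQ67 domain family, r = 0.962, and 0.902 without OX5), CYP71B34 (a cytochrome P450, 0.940 and 0.900), MMT (methionine S-methyltransferase, 0.934 and 0.809), ATB2 (0.923 and 0.759) and GIS (a zinc finger regulator of trichomes, 0.922 and 0.788). IQD30 and CYP71B34 stood at ranks 2 and 3 without the OX5 arrays, the other 3 at ranks 20 to 45. IQD30 had signals of 4.73 and 4.84 in OX5 drought, of 174, 208 and 106 in camta5 drought and of 293, 549 and 585 in Col-0 drought, against 78.4, 115 and 95.9 in camta5 water and 122, 162 and 132 in Col-0 water. As for PMEPCRF, the OX5 values were the lowest and the Col-0 drought values the highest.

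For TBL25 the likeness was weaker. The nearest were NAMT1 (a nicotinate methyltransferase, r = 0.829, and 0.868 without OX5), BUG22 (0.820 and 0.855), the glycosyltransferase gene UGT88A1 (0.772 and 0.697), the pollen regulator gene AGL104 (0.746 and 0.723, with signals of 0.752 to 90.1) and Hop3 (a co-chaperone, 0.739 and 0.655). NAMT1 and BUG22 stood at ranks 1 and 3 without the OX5 arrays. NAMT1 had signals of 2.103 and 25.1 in OX5 drought, of 229, 236 and 231 in camta5 drought against 50.5, 70.4 and 67.6 in Col-0 drought, and of 178, 123 and 110.4 in camta5 water against 77.0, 97.8 and 85.3 in Col-0 water. Like TBL25, it was lowest in OX5 on average and higher in camta5 than in Col-0 on every array of both conditions.

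**Figure D4:**
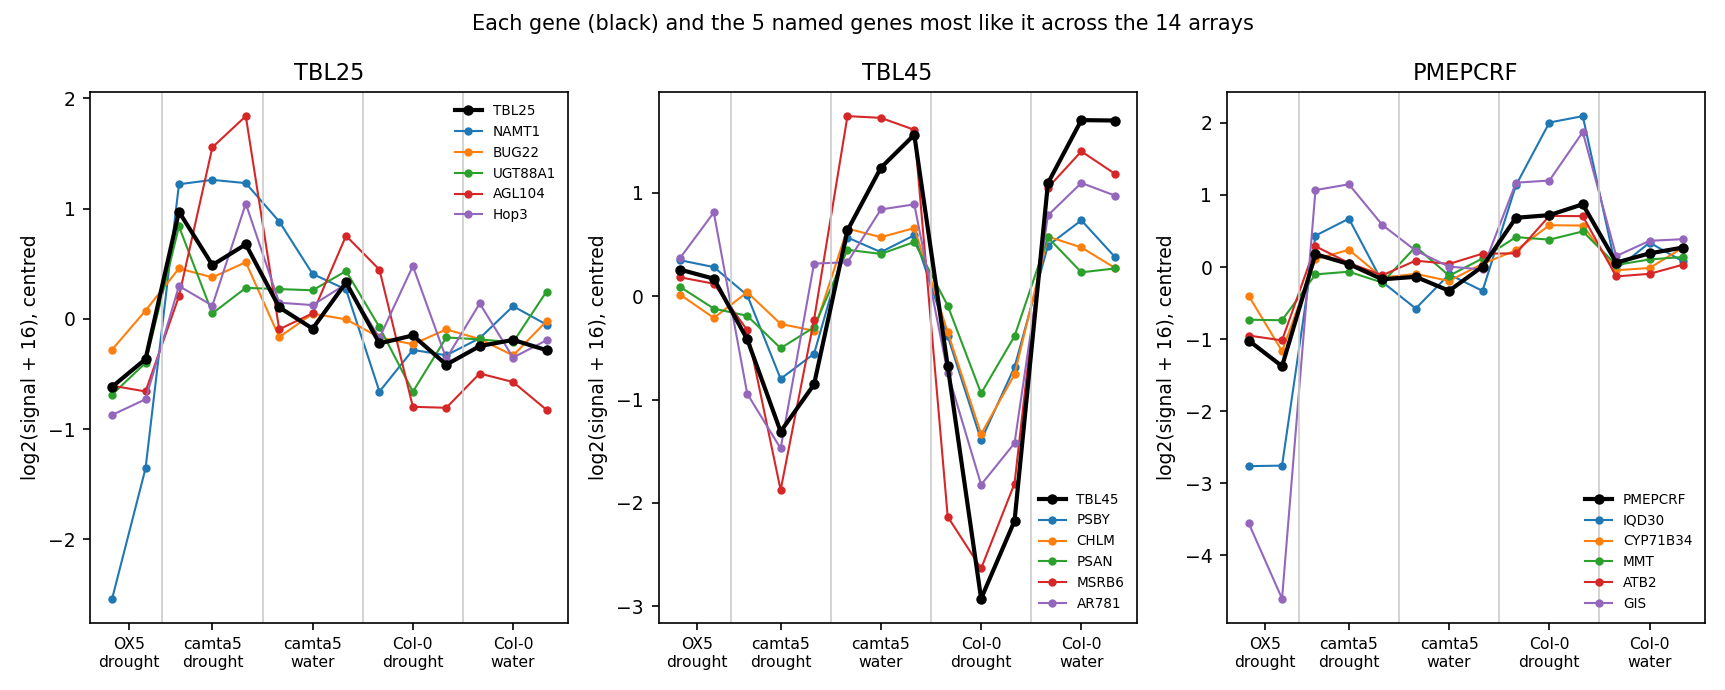
Log2(signal + 16), centred on the mean of the 14 arrays, of TBL25, TBL45 and PMEPCRF (black) and of the 5 named genes with the highest Pearson's r to each; arrays are grouped on the horizontal axis, and lines only join the arrays of a gene, whose order within a group has no meaning. TBL45 and its 5 genes are on average lower in camta5 and Col-0 drought than with water (r of 0.917 to 0.949), those of PMEPCRF are lowest in OX5 (0.922 to 0.962), and those of TBL25 follow it less closely (0.739 to 0.829).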

How the data were processed

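The authors deposited linear MAS5 signal intensities, 1 per probe set and array. The submitters' processing notes name Affymetrix Expression Console, and no version is given in the sources used here. The values themselves show a scaling of all arrays to a common trimmed mean (2% left out at each end). Scaling of this kind sets levels relative to the array's other genes. Precision is limited by the number of arrays. Signals of different probe sets were not set against each other. No 2 arrays shared more than 2 identical values.

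Genes were named from the platform annotation of 13513 probe sets with 1 gene, updated by Entrez number through a RefSeq table of assembly TAIR10.1. Coordinates and sequences were not used here. Values were taken as log2(signal + 16), which understates changes of low genes. Of 22810 probe sets, 64 controls and those above the 40th percentile of fewer than 2 arrays were left out, and 15646 were tested. A mean per group and a trended prior, with no covariates, were fitted to the 14 arrays with limma (version 3.58.1, in R 4.3.3). The two-sided p-values were adjusted by Benjamini-Hochberg within each of 7 comparisons, and those under 0.05 count as calls. The limma fit was tried on simulated data for drought minus water in camta5 only. The labels call replicates biological without naming separate plants, so p-values measure the spread between these samples.

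The 3 genes and all lists were chosen with earlier results of these data known. Of 135 list entries, 68 had a probe set and 30 of those carried the listed name, a synonym or a PMEPCR name in RefSeq, which left 22 tested. The other 38 were left out, among them all pectin methylesterase inhibitors, pectin acetylesterases and acetyl donor genes. Of 41 pectin methylesterase entries, 4 were used and 2 tested. Of 8 marker lists, 3 had a measured gene. Named were the 3 genes, up to 2 called genes with the largest change per list and comparison, and the 5 genes most like each. PSBY, IQD30 and NAMT1 per array were the first of each 5. ATPMEPCRD and PME39, which were not tested, and TBL23 were named after their values were seen.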

Additional observations from a re-analysis of the deposited data

How the results depend on the processing

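The alternatives changed the offset (1 or 64), the filter (none, or the 60th percentile), the scaling (quantile, or each array's median) and the moderation (no trend, or robust). Others were array weights, only the arrays compared, the replicate number as a block, the array camta5 water replicate 1 counted as Col-0 water, each array left out in turn and, chosen after seeing the data, no OX5 arrays. Of 561 values of the 3 genes, 552 kept their side of the threshold or, without a test, stayed within 1 SD of the arrays. For TBL45 that SD was 0.64 on the log2 scale. A change of filter or moderation, or leaving out an array of a group not compared, cannot move an untested difference. Such values were kept in advance, so this count says little about stability. With an offset of 1 the TBL45 difference for drought in Col-0 was -4.12, and with 64 it was -2.49, and OX5 minus Col-0 was 1.37 with 64. These 2 offsets weigh low signals differently. Leaving out 1 array gave -2.13 to -1.78 for PMEPCRF in OX5 minus Col-0, -1.39 to -1.04 in OX5 minus camta5, and 0.85 to 1.29 for TBL45 in OX5 minus camta5. Deviations of same-numbered arrays from their group means had correlations of -0.16 to 0.24, with 3 of 26 pairs over 0.1. Between Col-0 drought and camta5 drought they were 0.23 for replicate 1, 0.24 for replicate 2 and -0.16 for replicate 3. Across these groups replicates 1 and 2 crossed gave -0.31 and -0.29, and the other unlike numbers 0.04 to 0.11. The numbers were not taken as pairs, and an effect shared by same-numbered drought arrays was not tested. With the replicate block TBL45 in camta5 was at -2.01 (adjusted p = 0.0110) and in OX5 minus camta5 at 1.12 (0.0982), and the block changed no call of the 3 genes. With it the calls of TBR in Col-0 (0.0581) and PME61 in OX5 minus Col-0 (0.0553) ended. TBL relatives called higher in OX5 minus Col-0 were 0, and 1 under 11 alternatives. In OX5 minus camta5 they were 0, and 1 with the replicate block or without camta5 drought replicate 1. Called lower in camta5 minus Col-0 in drought were 0, and leaving out Col-0 drought replicate 2 gave 1. Over all probe sets, the number called in drought was 4277 in Col-0 (2606 without Col-0 drought replicate 2), 2547 in camta5 (1126 to 1512 without water replicate 1 or 3 or drought replicate 2 or 3, 1445 with the other grouping) and 228 in camta5 minus Col-0 (9 with only the arrays compared, 144 without trend, 427 with weights, 84 to 552 without Col-0 drought replicate 1 or 3 or camta5 drought replicate 3). Between the watered groups 0 became 6 with weights, 44 with only the arrays compared and 4 without Col-0 water replicate 3, and in the difference of the responses 0 became 37 without Col-0 drought replicate 1.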
